A study of Mus musculus with 8 samples.

Results

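Both microRNA manipulations of the study were set together against both wild types, to ask which genes of the arcuate nucleus moved in the same direction in each mouse line and which moved in opposite directions. The genes compared were those listed in both of the deposited gene tables, one for each manipulation, with a mean FPKM (sequenced fragments scaled by the transcript's length and the library's depth) of at least 1 over the 8 libraries. They numbered 11944 of the 13130 genes in both tables and of the 13769 genes in either table. The threshold fell between P2rx7 (mean 0.99962) and Ddr2 (mean 0.99957), just outside, and Msln (mean 1.0015) and Rpp40 (mean 1.0016), just inside. A further 1186 genes in both tables lay under the threshold, 335 genes were in the knockout table only and 304 in the sponge table only.

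The 17-92 knockout libraries came from male mice of the genotype Pomc-Cre;miR-17-92flox/flox, in which a Cre recombinase driven by the Pomc promoter deletes a microRNA cluster. The 7-sp sponge libraries came from female Pomc-Cre;miR-7-sponge mice, in which the same driver switches on a transcript that binds miR-7. Wild type males served for the knockout and wild type females for the sponge, and the wild types were littermates of the manipulated mice. All animals were C57BL/6 mice aged 4 months. Each of the 4 groups had 2 libraries, and each library pooled the arcuate nuclei of 2 mice. Mouse line and sex coincide in this design, so a difference between the lines is also one between the sexes. Both manipulated groups carried Pomc-Cre and neither wild type did, so an effect of the manipulations cannot be told apart from an effect of the driver. The driver acts in POMC cells, a small share of the tissue, while the libraries hold RNA of the whole nucleus, in which fewer cells of a type and less RNA per cell cannot be told apart. The levels of the deleted cluster and of the sponge transcript were not analysed here. The label of sponge library 2 notes that its second file of raw reads is missing.

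The 8 libraries were alike in their totals. FPKM over the genes in both tables summed to between 141356 and 152351 per library, the median FPKM of a compared gene was 5.36 to 5.73, and 77 to 99 of the compared genes were listed at 0 in a library. Correlation of log2(FPKM + 1) across genes had a median of 0.889 within groups (4 pairs) and of 0.893 between opposite arms of the same line (8 pairs). The arcuate markers Pomc, Agrp and Npy were present in all 8 libraries. Pmch, which marks neurons of the neighbouring lateral hypothalamus, was present too, at 111.8 to 344.9 FPKM. Single libraries stood apart in genes of tissues that border the arcuate nucleus. Wild type female library 2 held 510 FPKM of the choroid plexus gene Ttr, against 3.47 to 35.4 in the other libraries. Knockout library 1 held 248.2 FPKM of the pituitary gene Gh, against 2.24 to 61.9 in the others.

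MicroRNAs guide Argonaute proteins to messenger RNAs that pair with their seed, bases 2 to 8 from the 5′ end, and lower the level or the translation of those RNAs. The miR-17-92 cluster, known for its part in cell growth, encodes 4 seed families on mouse chromosome 14. miR-7 is abundant in neuroendocrine cells and its mature forms come from 3 loci. POMC neurons of the arcuate nucleus restrain feeding and AgRP neurons drive it. The mature sequences are shown because the deleted cluster and the microRNA bound by the sponge share no seed. They are from RefSeq, build GRCm38.p6, written 5′ to 3′, with the seed in capitals.

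miR-17-5p: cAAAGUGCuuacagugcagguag
miR-20a-5p: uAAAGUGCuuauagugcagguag
miR-18a-5p: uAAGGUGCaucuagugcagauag
miR-19a-3p: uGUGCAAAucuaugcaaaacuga
miR-19b-3p: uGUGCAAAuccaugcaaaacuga
miR-92a-3p: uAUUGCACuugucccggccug
miR-7a-5p: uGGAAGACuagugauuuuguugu
miR-7b-5p: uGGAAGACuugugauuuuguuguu

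The first 6 belong to the deleted cluster. miR-17-5p and miR-20a-5p share one seed and miR-19a-3p and miR-19b-3p another, while miR-18a-5p differs from miR-17-5p within the seed. The last pair are the miR-7 forms, which share a seed and are bound by the sponge. miR-7a-5p is encoded on chromosomes 13 and 7, and miR-7b-5p on chromosome 17.

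In the joint comparison 3 genes passed, which is 0.0251% of the 11944 genes tested. Nhlrc1 was higher in both manipulated groups, and Ankrd34a and Zfp664 were lower in both. The test was limma on log2(FPKM + 1) with mouse line as a block and Benjamini-Hochberg adjustment over all genes, at an adjusted p under 0.05. At an unadjusted p under 0.05 there were 605 genes, which is 5.07% of those tested. Of these, 313 (2.62%) were higher and 292 (2.44%) were lower.

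Nhlrc1 encodes malin, a ubiquitin ligase that with laforin limits glycogen build-up and that is mutated in human Lafora disease. It has a single exon on chromosome 13, from 47012558 to 47014850 on the minus strand (GRCm38). The knockout libraries held 8.23 and 8.95 FPKM and the sponge libraries 10.01 and 8.67, and Nhlrc1 was listed at 0 in all 4 wild type libraries. The arms did not overlap in either line (limma, adjusted p = 4.402e-05 jointly, 0.00482 in the knockout line and 0.00394 in the sponge line). No fold change is given, since one arm is listed at 0. Whether a value of 0 here is a failed estimate was not tested. Pcbp1, an RNA-binding protein gene that cells use generally, was at 22.2 to 40.4 FPKM in 6 libraries and at 0 in the wild type males.

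Ankrd34a, which encodes an ankyrin repeat protein, lies on chromosome 3 from 96596636 to 96599775 on the plus strand and has 2 exons. The knockout libraries held 0.0953 and 0.174 FPKM and the sponge libraries 0.0643 and 0, against 10.98 and 6.50 in wild type males and 7.79 and 8.73 in wild type females. Every manipulated library was below 1 FPKM and every wild type library above 6. The log2 fold change was −3.11 ± 0.16 on the log2(FPKM + 1) scale (standard error, 4 libraries per arm; limma, adjusted p = 0.00082). With a pseudocount of 0.1 in place of 1 it was −5.62.

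Zfp664, a C2H2 zinc-finger gene with 4 exons, lies on chromosome 5 from 124862691 to 124902693 on the plus strand. The knockout libraries held 1.61 and 2.201 FPKM and the sponge libraries 1.94 and 1.49, against 10.86 and 6.73 in wild type males and 8.46 and 10.26 in wild type females. The arms were separate in both lines, at a mean of 1.81 ± 0.32 FPKM in manipulated and 9.08 ± 1.87 in wild type libraries (SD, n = 4 each). The log2 fold change was −1.83 ± 0.17 (limma, adjusted p = 0.0377), and within the lines, which did not pass, −1.73 ± 0.25 in the knockout and −1.93 ± 0.25 in the sponge (adjusted p = 0.232 and 0.274). This call was lost in 7 of the 8 fits that left out 1 library, with adjusted p from 0.0685 to 0.176 and log2 fold changes from −1.73 to −1.91. It stayed only without wild type male library 2 (adjusted p = 0.0182). Nhlrc1 and Ankrd34a passed in all 8 of these fits. Both drop out of the comparison when a mean FPKM of at least 5 is asked for or when genes listed at 0 are left out. No gene passed limma under either rule, with 312 and 617 genes at an unadjusted p under 0.05.

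**Figure D1:**
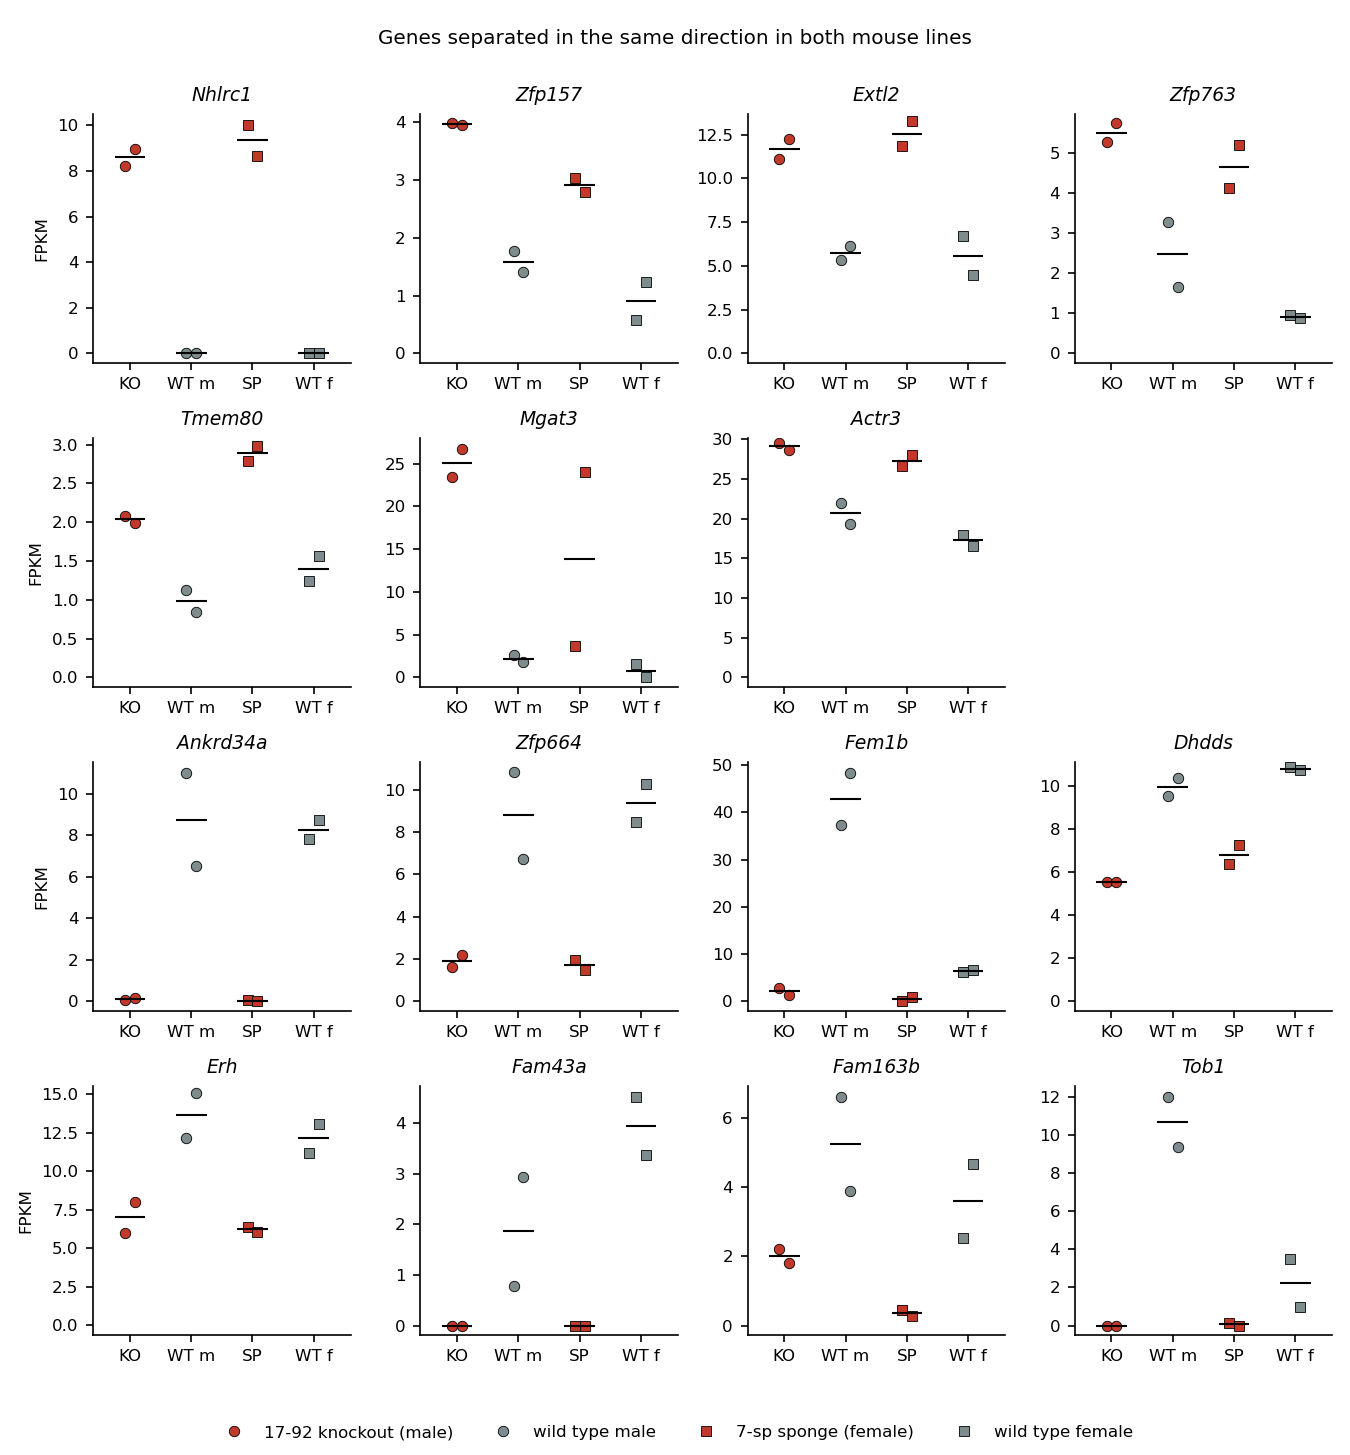
FPKM (linear axis from 0) in each library of 15 genes named for separating the same way in both lines, 7 higher (top rows) and 8 lower (bottom rows), by group; KO is the 17-92 knockout, SP the 7-sp sponge, and bars are group means. Nhlrc1 sat at 0 in all wild type libraries, while Ankrd34a stayed under 1 FPKM in the manipulated libraries and above 6 in the wild type ones.

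The genes of next smallest p that were separated in both lines did not pass. On the higher side, Extl2, a glycosyltransferase gene of the exostosin family that acts in proteoglycan chain synthesis, was at 11.09 and 12.27 FPKM in the knockout and 11.86 and 13.26 in the sponge libraries, against 5.34 and 6.11 in wild type males and 6.70 and 4.46 in wild type females. Its log2 fold change was 0.99 ± 0.14 (limma, adjusted p = 0.222). The transcript Extl2-001 carried this difference, at 8.98 to 10.7 FPKM in manipulated and 2.28 to 3.88 in wild type libraries. The transcript Extl2-006 overlapped, at 2.94 to 5.35 FPKM in manipulated and 2.97 to 3.91 in wild type libraries.

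Actr3, the Arp3 subunit of the Arp2/3 complex that nucleates branched actin, was at 29.6 and 28.6 FPKM in the knockout and 26.6 and 28.0 in the sponge libraries, against 22.0 and 19.3 in wild type males and 17.98 and 16.5 in wild type females. The step was small but tight, at 28.2 ± 1.25 FPKM in manipulated and 19.0 ± 2.33 in wild type libraries (SD, n = 4 each), a log2 fold change of 0.55 ± 0.10 (limma, adjusted p = 0.544).

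Mgat3, which adds the bisecting sugar to N-glycans, was at 23.5 and 26.7 FPKM in the knockout and 3.68 and 24.0 in the sponge libraries, against 2.65 and 1.77 in wild type males and 1.62 and 0 in wild type females. The sponge libraries were far apart, and each line's groups did not overlap. The joint log2 fold change was 2.89 ± 0.53 (limma, adjusted p = 0.544). The KRAB zinc-finger genes Zfp157 and Zfp763 and the transmembrane protein gene Tmem80 completed the set. Their log2 fold changes were 1.00 ± 0.14, 1.25 ± 0.20 and 0.66 ± 0.11, with adjusted p of 0.222, 0.342 and 0.458 (limma). Of the Tmem80 transcripts, Tmem80-002 was at 2.30 to 4.23 FPKM in manipulated libraries and at 0 to 1.85 in wild type ones. Tmem80-007 went the other way, at 0.0634 to 0.642 FPKM in manipulated libraries and at 0.38 to 1.203 in wild type ones, with overlap between the arms.

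On the lower side, Fem1b came closest to passing. Fem1b is a substrate receptor of a CUL2 ubiquitin ligase. It was at 2.77 and 1.47 FPKM in the knockout and 0.0558 and 0.931 in the sponge libraries, against 37.4 and 48.3 in wild type males and 6.23 and 6.73 in wild type females. All 4 manipulated libraries were below all 4 wild type libraries, and the wild type lines themselves differed. The log2 fold change was −3.11 ± 0.35 jointly (limma, adjusted p = 0.0823). Without sponge library 2 it passed (−3.43, adjusted p = 0.0253). Within the lines it was −3.83 ± 0.34 for the knockout (adjusted p = 0.0318) and −2.39 ± 0.34 for the sponge (adjusted p = 0.319). An antisense long RNA is annotated within Fem1b.

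Tob1, a BTG/TOB protein gene that brings the deadenylase complex to messenger RNAs, was at 0 in the knockout pair and at 0.118 and 0 in the sponge pair, against 11.99 and 9.39 FPKM in wild type males and 3.52 and 0.957 in wild type females (limma, adjusted p = 0.544). Fam43a was listed at 0 in all 4 manipulated libraries, against 0.791 and 2.94 FPKM in wild type males and 4.52 and 3.37 in wild type females (limma, adjusted p = 0.329). Without wild type male library 1 Fam43a passed (adjusted p = 0.015) and the adjusted p of Zfp763 came just under the threshold (log2 fold change 1.45). Both Tob1 and Fam43a have 1 or 2 exons.

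Erh encodes a small nuclear protein that in human cells binds the Microprocessor, which cuts primary microRNA transcripts. It was at 6.02 and 8.01 FPKM in the knockout and 6.38 and 6.07 in the sponge libraries, against 12.2 and 15.1 in wild type males and 11.2 and 13.1 in wild type females. Manipulated libraries averaged 6.62 ± 0.94 FPKM and wild type libraries 12.9 ± 1.67 (SD, n = 4 each), a log2 fold change of −0.87 ± 0.13 (limma, adjusted p = 0.27). Erh overlaps Slc39a9 on the opposite strand, and the strand setting used in counting is not given in the sources used here. Dhdds, a subunit of the enzyme that makes the dolichol lipid for N-glycosylation, was at 5.54 and 5.53 FPKM in the knockout and 6.36 and 7.26 in the sponge libraries, against 9.55 and 10.4 in wild type males and 10.9 and 10.8 in wild type females. The log2 fold change was −0.67 ± 0.10 (limma, adjusted p = 0.27). Fam163b had −1.36 ± 0.24 (limma, adjusted p = 0.488).

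Of these 15 genes, 7 hold a match to one of the seeds in the longest annotated 3′ UTR, and none holds matches of both manipulated microRNA groups. Over all compared genes with an annotated 3′ UTR, 44.2% hold a match to at least 1 of these seeds, so the count of 7 is near the background. The sites are shown because they are the places where the deleted or bound microRNAs could pair. They come from GENCODE M21 transcripts (GRCm38), on the coding strand, with up to 11 bases on each side and the 7 bases that pair with the seed in capitals.

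Nhlrc1 (miR-17 and miR-20a, chr13:47012622-47012650, minus strand): tgacgcctgaaGCACTTTgtgatggaggc
Mgat3 (miR-17 and miR-20a, chr15:80212591-80212614, plus strand): ggctgtGCACTTTcacagggctgg
Zfp763 (miR-19, chr17:33017549-33017577, minus strand): cagcaaatttaTTTGCACaggatatttct
Fem1b (miR-19, chr9:62792328-62792356, minus strand): cacaggcaggcTTTGCACctatttcctat
Fam43a (miR-19, chr16:30602554-30602582, plus strand): tgtaaaatattTTTGCACtgttgtgaagt
Tob1 (miR-92a, chr11:94215373-94215401, plus strand): gtacctatattGTGCAATacttgaaaaaa
Fam163b (miR-7, chr2:27112362-27112390, minus strand): ctgctcagtcaGTCTTCCccgtatccttg

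The match in Nhlrc1 is to a seed of the deleted cluster, and Nhlrc1 was high in both lines. The match in Fam163b is to the miR-7 seed, and Fam163b was lower in both lines. Whether any of these sites is bound, or has a part in these values, was not tested. Ankrd34a and Zfp664 hold none of the sites. A match of this length is common: GCACTTT is in the 3′ UTR of 15.8% of the 11856 compared genes with an annotated UTR, TTTGCAC in 14.8%, GTGCAAT in 8.53% and GTCTTCC in 15.4%.

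Over all genes, the median log2 fold changes of those with and without a seed match are given here with no test. The 1879 genes with a miR-17 and miR-20a match had a median log2 fold change of 0.007, against −0.004 for genes without one. The 1824 genes with a miR-7 match had a median of −0.014, against 0.001. In the knockout alone, the medians were 0.038 against 0.028 for miR-17 and miR-20a, 0.036 against 0.029 for miR-19 and 0.033 against 0.029 for miR-92a. For the 1249 genes with a miR-18a match they were −0.009 against 0.034 in the knockout. In the sponge alone, the medians for miR-7 were −0.039 against −0.034. For the 938 genes with a miR-7 match and a match to any family of the cluster (7.91%), the median was −0.012, against −0.001 for the rest. Of these 938 genes, 4.58% had an unadjusted p under 0.05, against 5.1% of the rest.

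Gene by gene, the effects in the 2 lines were close to uncorrelated. They share no library, and across the 11944 genes their log2 fold changes had a Pearson correlation of 0.0164 and a Spearman correlation of 0.0624, given as a description since genes are not independent. Over the 6517 genes with a mean FPKM of at least 5 these were 0.00303 and 0.0671. The sign was the same in both lines for 6271 genes (52.5%). In the knockout 53.4% of genes had a positive log2 fold change, against 43.3% in the sponge, and the medians over all genes were 0.029 in the knockout and −0.035 in the sponge.

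Both manipulated libraries were above both wild type libraries in each line for 345 genes (2.89%) and below in each line for 409 genes (3.42%), while 659 genes (5.52%) were separated in opposite directions in the 2 lines. All 4 manipulated libraries were above all 4 wild type libraries for 164 genes (1.37%) and below for 216 genes (1.81%). Within the lines, 9 genes passed in the knockout (0.0754%) and 2 in the sponge (0.0167%), and Nhlrc1 and Ankrd34a passed in each. Ankrd34a was just under the threshold in the sponge (limma, adjusted p = 0.0498, against 0.0232 in the knockout). Both tests take their spread from all 8 libraries, so the lines are not independent tests of a gene. At an unadjusted p under 0.05 there were 827 genes in the knockout (6.92%) and 448 in the sponge (3.75%).

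**Figure D2:**
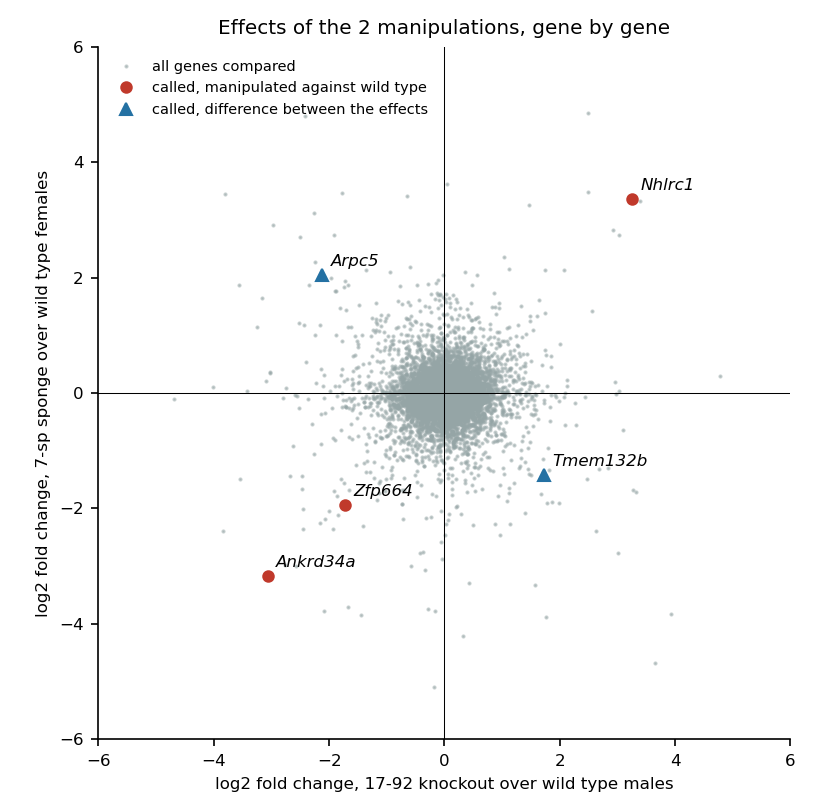
Log2 fold change in the knockout (x axis, over wild type males) and in the sponge (y axis, over wild type females) for each of the 11944 genes, on the log2(FPKM + 1) scale; red circles passed the joint test and blue triangles passed the test of the difference between the effects. The cloud is round, with a Pearson correlation of 0.0164, and Nhlrc1 and Ankrd34a lie at the ends of the diagonal on which both effects have the same sign.

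In the test of the difference between the effects, 2 genes passed (0.0167% of those tested), and both had log2 fold changes of opposite sign in the 2 lines. Arpc5, another subunit of the Arp2/3 complex, was at 5.22 and 6.08 FPKM in the knockout against 27.4 and 28.3 in wild type males, and at 23.3 and 28.8 in the sponge against 5.23 and 5.76 in wild type females. Its libraries fell into a high and a low level, with the knockout and the wild type females low. The knockout effect minus the sponge effect was −4.17 ± 0.24 (limma, adjusted p = 0.0163). Within the lines, the log2 fold change was −2.12 ± 0.17 in the knockout (adjusted p = 0.0232) and 2.05 ± 0.17 in the sponge (adjusted p = 0.0512).

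Tmem132b, which encodes a membrane protein with a single transmembrane segment, went the other way. It was at 14.3 and 16.9 FPKM in the knockout against 3.91 and 4.13 in wild type males, and at 5.39 and 4.83 in the sponge against 15.6 and 15.1 in wild type females. The knockout effect minus the sponge effect was 3.14 ± 0.22 (limma, adjusted p = 0.0261). The Tmem132b call was lost in 7 of the 8 fits that left out 1 library and stayed without wild type male library 1, with adjusted p from 0.0472 to 0.117. The Arpc5 call was lost without either knockout library, without wild type male library 2 and without wild type female library 2, with adjusted p from 0.0265 to 0.0756 over the 8 fits. At an unadjusted p under 0.05, 578 genes differed between the effects (4.84%).

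The other genes of smallest p for this difference did not pass. Some had 3 groups at one level and 1 group apart. Pcbp1 was listed at 0 in wild type males, as given above (adjusted p = 0.109 for the difference). Jagn1, an endoplasmic reticulum protein gene, was at 1.15 and 1.02 FPKM in the knockout against 5.82 and 6.48 in wild type males, and at 5.61 and 4.53 in the sponge against 4.74 and 5.35 in wild type females (adjusted p = 0.398). Within the knockout line Pcbp1 and Jagn1 passed (limma, adjusted p = 0.0133 and 0.0343).

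The histone gene Hist1h2ah was at 0 in the knockout pair, against 2.86 and 2.57 FPKM in wild type males, and at 2.72 and 3.06 in the sponge against 2.63 and 2.48 in wild type females (adjusted p = 0.152 for the difference). It too passed within the knockout line (limma, adjusted p = 0.0232). Histone genes have near-identical copies and lack poly(A) tails for the most part, so its counts are uncertain. Eif3j2, a copy of an initiation factor subunit gene, was also at 0 in the knockout pair, against 3.81 and 4.83 FPKM in wild type males (adjusted p = 0.415 for the difference). Reads shared with its near-identical copy make its level uncertain too. Zfp704, a zinc-finger gene, was at 7.63 and 6.90 FPKM in the knockout against 6.56 and 7.25 in wild type males, and at 1.63 and 0.76 in the sponge against 9.01 and 8.69 in wild type females (adjusted p = 0.415). Rab11fip4, an effector of Rab11 in recycling endosomes, and Slc25a5, a mitochondrial ADP/ATP carrier, had opposite signs in the 2 lines. Their knockout effect minus sponge effect was 1.72 ± 0.25 and −1.79 ± 0.26 (adjusted p = 0.415 each).

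**Figure D3:**
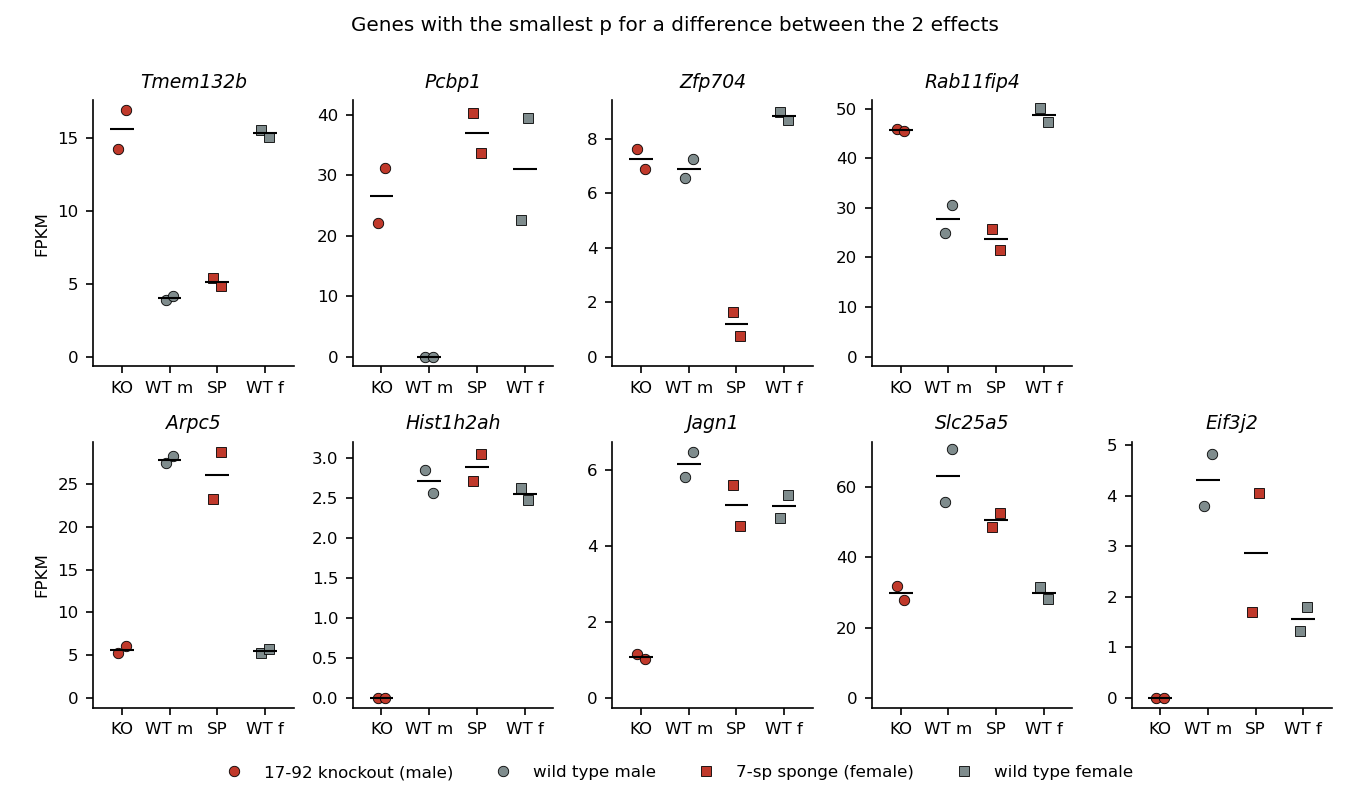
FPKM (linear axis from 0) in each library of 9 genes of smallest p for a difference between the 2 effects, with the knockout effect above the sponge effect in the top row and below it in the bottom row; KO is the 17-92 knockout, SP the 7-sp sponge, and bars are group means. Tmem132b and Arpc5 sat at 2 levels, and the group that was high in one line was the manipulated one and in the other the wild type.

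Because Actr3 and Arpc5 belong to one complex, the remaining Arp2/3 subunits were looked up after those values were seen. Among Actr2, Actr3b, Arpc1a, Arpc1b, Arpc2, Arpc3, Arpc4 and Arpc5l, the joint log2 fold changes ran from −0.40 ± 0.24 for Arpc5l to 0.04 ± 0.14 for Arpc4, and none passed (limma, adjusted p from 0.856 for Arpc5l to 0.9964 for Actr3b). Joint values cannot show opposite effects like those of Arpc5, whose own joint value was −0.03 ± 0.78. In the same genes the knockout effect minus the sponge effect ran from −0.20 ± 0.50 for Arpc5l to 0.40 ± 0.22 for Arpc2. None passed there either (limma, adjusted p from 0.924 for Arpc2 to 0.987 for Actr3b). Arpc5l, the paralogue that can take the place of Arpc5, was at 5.27 and 11.4 FPKM in the knockout against 13.2 and 9.95 in wild type males, and at 9.96 and 10.7 in the sponge against 15.6 and 10.6 in wild type females and did not part into the same sets of libraries.

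Genes with few exons had the widest spread between libraries of the same group, and both genes that passed in each line are among them. The 586 genes with 1 or 2 exons had a median SD between the 2 libraries of a group of 0.86 on the log2 scale, against 0.237 over all genes, and 41.3% of them were listed at 0 in at least 1 library, against 2.34% of all genes. A gap of at least 2 log2 units, with 2 or more libraries on each side, occurred in 175 genes (1.47%), of which 137 had 1 or 2 exons. In 37 genes such a gap parted 4 libraries from 4. In 2 of those 37, Nhlrc1 and Ankrd34a, the parts were the manipulated and the wild type libraries, and in the others they were other sets of 4. Zfp664 has 4 exons and no such gap. The part of the exon number in the 3 calls was not tested.

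**Figure D4:**
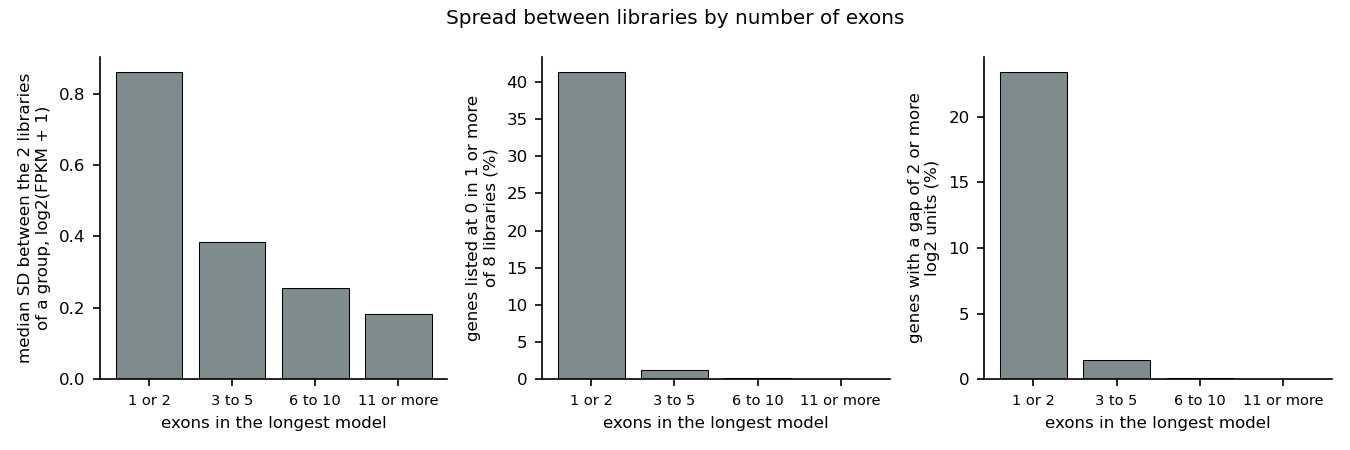
Spread between libraries for genes grouped by the number of exons in their longest annotated model: the median SD between the 2 libraries of a group (left, log2 units), the percentage of genes listed at 0 in at least 1 library (middle) and the percentage with a gap of at least 2 log2 units between libraries (right). Genes with 1 or 2 exons stand highest in each panel, at 0.86, 41.3% and 23.4%.

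The genes of the POMC and AgRP neurons did not pass. Pomc, which encodes the melanocortin precursor, was at 33.3 and 14.9 FPKM in the knockout and 90.4 and 12.4 in the sponge libraries, against 60.9 and 27.9 in wild type males and 37.4 and 71.7 in wild type females. The libraries of a group lay far apart and the arms overlapped, with a log2 fold change of −0.73 ± 0.62 (limma, adjusted p = 0.861). Agrp was at 17.1 and 14.6 FPKM in the knockout against 21.7 and 20.3 in wild type males, and at 22.7 and 28.3 in the sponge against 20.0 and 17.5 in wild type females, so the lines had opposite signs. Its joint log2 fold change was 0.02 ± 0.19 (limma, adjusted p = 0.995) and was negative, from −0.005 to −0.13, in each fit that left out 1 library of the sponge line. Npy had −0.31 ± 0.24 and Cartpt 0.62 ± 0.57 (limma, adjusted p = 0.856 and 0.861).

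Of the 45 neuropeptide and feeding genes compared, 20 had a positive and 25 a negative joint log2 fold change, with a median of −0.042 against −0.002 over all genes, and none passed. Lepr, the leptin receptor, was at 2.05 and 2.21 FPKM in the knockout and 2.16 and 2.73 in the sponge libraries, against 1.19 and 1.26 in wild type males and 2.02 and 1.87 in wild type females (log2 fold change 0.36 ± 0.12, limma adjusted p = 0.856). Mc4r, the melanocortin receptor downstream of POMC neurons, was at 1.04 and 0 in the knockout and 1.00 and 0 in the sponge libraries, against 2.58 and 1.95 in wild type males and 1.21 and 1.496 in wild type females (limma, adjusted p = 0.856). These were the genes of smallest p in the list. Mc4r has 1 exon, and 41.3% of genes with 1 or 2 exons were listed at 0 in at least 1 library. It averaged 0.512 FPKM in manipulated and 1.81 in wild type libraries, so it met the minimum mean only through the wild type ones. Over all 8 libraries 1 of the 45 genes, Lepr, was separated upward, against 1.37% of all genes. Downward, 2 of the 45 were separated, Mc4r among them, against 1.81% of all genes.

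The neighbours of Pomc on chromosome 12 were examined after their values were seen, because both manipulated groups carry Pomc-Cre. The next gene downstream, Efr3b, which anchors a phosphatidylinositol kinase at the cell membrane, was at 48.8 and 35.6 FPKM in the knockout and 52.4 and 26.4 in the sponge libraries, against 27.4 and 28.9 in wild type males and 12.6 and 17.0 in wild type females. It was separated in each line, with a log2 fold change of 0.92 ± 0.27 (limma, adjusted p = 0.856). Dnajc27, a Rab-like GTPase with a J domain, comes next and was at 10.1 and 12.3 FPKM in the knockout and 14.6 and 10.8 in the sponge libraries, against 31.4 and 15.4 in wild type males and 34.0 and 32.4 in wild type females. All 4 manipulated libraries were below all 4 wild type ones, with −1.13 ± 0.23 (limma, adjusted p = 0.77). Among the 25 compared genes within 5 Mb of Pomc, these 2 had an unadjusted p under 0.05, 1 higher and 1 lower, against 5.07% of all genes tested, so the count is near the background, and the median log2 fold change of the 25 was −0.104. Pomc-Cre coincides with the arms, so its part in these values cannot be told apart.

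No member of any of the 26 gene lists passed the joint test, so the lists are described by counts and medians. Over all genes 49.7% had a positive log2 fold change. Members described below as separated over all 8 libraries were picked for a small p. Of all genes, 1.37% were separated upward and 1.81% downward. Meningeal and fibroblast genes stood highest, with 11 of 12 positive and a median of 0.727. At an unadjusted p under 0.05, 8 of the 12 were higher, against 2.62% of all genes. Of the 19 members of this list, 17 were in both tables and 12 averaged at least 1 FPKM. Members low in wild type libraries could reach that mean through the manipulated ones, so the counts are for the genes kept. Crabp2, a retinoic acid binding protein gene of the meninges, was at 2.48 and 1.87 FPKM in the knockout and 2.13 and 0.802 in the sponge libraries, against 0.119 and 0.505 in wild type males and 0.392 and 0.322 in wild type females (limma, adjusted p = 0.77). It averaged 1.82 FPKM in manipulated and 0.335 in wild type libraries, and so entered the comparison only through the manipulated ones. The summed FPKM of the 12 genes was 389.3 and 266 in the knockout and 275.2 and 91.6 in the sponge libraries, against 104.1 and 95.8 in wild type males and 93.4 and 116.8 in wild type females. Sponge library 2 thus lay below all 4 wild type libraries, and the other manipulated libraries above them. Ptgds, the prostaglandin D synthase gene, made up most of these sums, at 326.6 and 222.1 FPKM in the knockout and 228.9 and 62.3 in the sponge libraries, against 80.6 and 68.6 in wild type males and 63.5 and 90.6 in wild type females. The part of meningeal RNA in the 3 calls was not tested.

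Of the 17 members of the pituitary list, only 5 were compared. These 5 were positive, with a median of 0.725, and none had an unadjusted p under 0.05 (limma). Their sums ran from 30.4 to 354.8 FPKM in manipulated and from 25.5 to 90.2 in wild type libraries, so the arms overlapped. Pcsk1, at 11.9 to 22.1 FPKM over the libraries, did not vary as Gh did, at 2.2 to 248.2. In wild type female library 4, Pcsk1 made up 18.6 of the sum of 25.5 FPKM. The part of pituitary RNA in the positive signs was not tested. Choroid plexus genes were positive for 2 of 6, with sums of 39.5 to 81.0 FPKM in manipulated and 35.6 to 54.8 in 3 wild type libraries, and 627.6 in wild type female library 2. Ependymal genes were positive for 14 of 15, with a median of 0.2. Their sums were 120 and 95.03 FPKM in the knockout and 122 and 97.2 in the sponge libraries, against 75.8 and 91.0 in wild type males and 107.9 and 88.1 in wild type females. Pifo, a cilium gene, was higher in every manipulated library than in any wild type one, at 2.773 to 5.22 FPKM in manipulated and 2.361 to 2.765 in wild type libraries (limma, adjusted p = 0.856).

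Glial lists leaned the other way in the joint comparison. Oligodendrocyte genes were negative for 16 of 18, with a median of −0.18, and their sums of 219.4 to 291.1 FPKM in manipulated libraries overlapped those of 238.3 to 368.7 in wild type libraries. The myelin gene Mag was at 12.8 and 11.7 FPKM in the knockout and 8.04 and 8.70 in the sponge libraries, against 15.5 and 18.9 in wild type males and 15.3 and 9.51 in wild type females (log2 fold change −0.47 ± 0.16, limma adjusted p = 0.856). Mbp, the gene of highest level in that list, had 0.21 ± 0.50 (limma, adjusted p = 0.943). Astrocyte and microglial genes were each negative for 11 of 16, with medians of −0.095 and −0.129. In the knockout 44.4% of oligodendrocyte, 37.5% of astrocyte and 43.8% of microglial genes were positive, against 53.4% of all genes. In the sponge these shares were 22.2%, 12.5% and 43.8%, against 43.3%, so the microglial share there was near the background. Tanycyte genes were positive for 7 of 14. Endothelial and mural genes were positive for 11 of 18 jointly, but for 14 of 18 in the knockout and 4 of 18 in the sponge. Pan-neuronal genes were positive for 9 of 20 jointly, 10 of 20 in the knockout and 6 of 20 in the sponge.

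Cytosolic ribosomal protein genes were positive for 72 of 82, with a median of 0.206, but their sums overlapped. They were 11680 and 9037 FPKM in the knockout and 8048 and 9436 in the sponge libraries, against 7179 and 9208 in wild type males and 9352 and 7303 in wild type females. Nuclear oxidative phosphorylation genes were positive for 54 of 77, with a median of 0.181 in the knockout and −0.012 in the sponge, and their sums were lowest in the same pair of wild type libraries, with 3674 to 4976 FPKM in the other 6 against 3296 in male library 1 and 3177 in female library 4.

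Immediate early genes, which neurons switch on with activity, were positive for 17 of 24, with a median of 0.185. Dusp1, a phosphatase gene that ends MAP kinase signals, was at 3.67 and 6.08 FPKM in the knockout and 7.12 and 4.26 in the sponge libraries, against 2.65 and 3.10 in wild type males and 3.47 and 2.98 in wild type females. Manipulated libraries lay above all wild type ones, with a log2 fold change of 0.60 ± 0.19 (limma, adjusted p = 0.856). Synaptic vesicle and release genes were negative for 30 of 43, with a median of −0.097. Napa, which encodes the SNARE recycling factor alpha-SNAP, was at 17.1 and 15.4 FPKM in the knockout and 18.6 and 16.2 in the sponge libraries, against 26.7 and 18.7 in wild type males and 28.3 and 29.4 in wild type females. It too was separated over all 8 libraries, with −0.57 ± 0.14 (limma, adjusted p = 0.856).

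In the Ras, Sprouty and Spred list, 12 of 28 genes were positive. Spred1, an inhibitor of Ras signalling with a miR-17 and miR-20a match in its 3′ UTR, was at 25.7 and 28.1 FPKM in the knockout against 6.66 and 6.92 in wild type males, and at 9.09 and 13.9 in the sponge against 6.74 and 9.50 in wild type females. Its joint log2 fold change was 1.14 ± 0.30 (limma, adjusted p = 0.856), and the knockout effect minus the sponge effect was 1.40 ± 0.35 (adjusted p = 0.748). PI3K, AKT and mTOR genes were positive for 15 of 39, potassium channel genes for 19 of 53, histone genes for 18 of 41, and clustered protocadherins for 12 of 23. The protocadherins differed between the lines, with 7 of 23 positive in the knockout and 17 of 23 in the sponge. Cholesterol synthesis genes were positive for 12 of 24. Among them Lss, lanosterol synthase, was separated over all libraries, at 2.39 to 3.03 FPKM in manipulated and 1.53 to 2.06 in wild type libraries (log2 fold change 0.42 ± 0.11, limma adjusted p = 0.856).

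Of 39 genes for microRNA processing and silencing, 22 were positive, with a median of 0.054. Edc3, an activator of mRNA decapping, was at 2.82 and 2.58 FPKM in the knockout and 1.97 and 2.69 in the sponge libraries, against 4.115 and 3.20 in wild type males and 3.58 and 4.15 in wild type females (log2 fold change −0.44 ± 0.13, limma adjusted p = 0.856). Targets of miR-7 known from the literature were positive for 19 of 36 jointly, for 10 of 36 (27.8%) in the sponge and for 23 of 36 (63.9%) in the knockout. Targets of miR-17-92 were positive for 17 of 37 jointly, 18 of 37 (48.6%) in the knockout and 15 of 37 (40.5%) in the sponge. Over all genes, 53.4% were positive in the knockout and 43.3% in the sponge. Ctgf, whose secreted product acts in the extracellular matrix, was separated over all libraries, at 1.25 to 1.73 FPKM in manipulated and 0.665 to 1.12 in wild type libraries (log2 fold change 0.46 ± 0.13, limma adjusted p = 0.856). Its level was low, and its mean was 1.54 FPKM in manipulated and 0.847 in wild type libraries. It thus met the minimum mean of 1 only through the manipulated ones. Heat shock and chaperone genes were positive for 16 of 29 jointly, but for 19 of 29 in the knockout and 7 of 29 in the sponge. The 9 BTG, TOB and Irf2bp corepressor genes had a joint median of −0.108 while the medians of both lines were positive, at 0.193 in the knockout and 0.161 in the sponge.

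**Figure D5:**
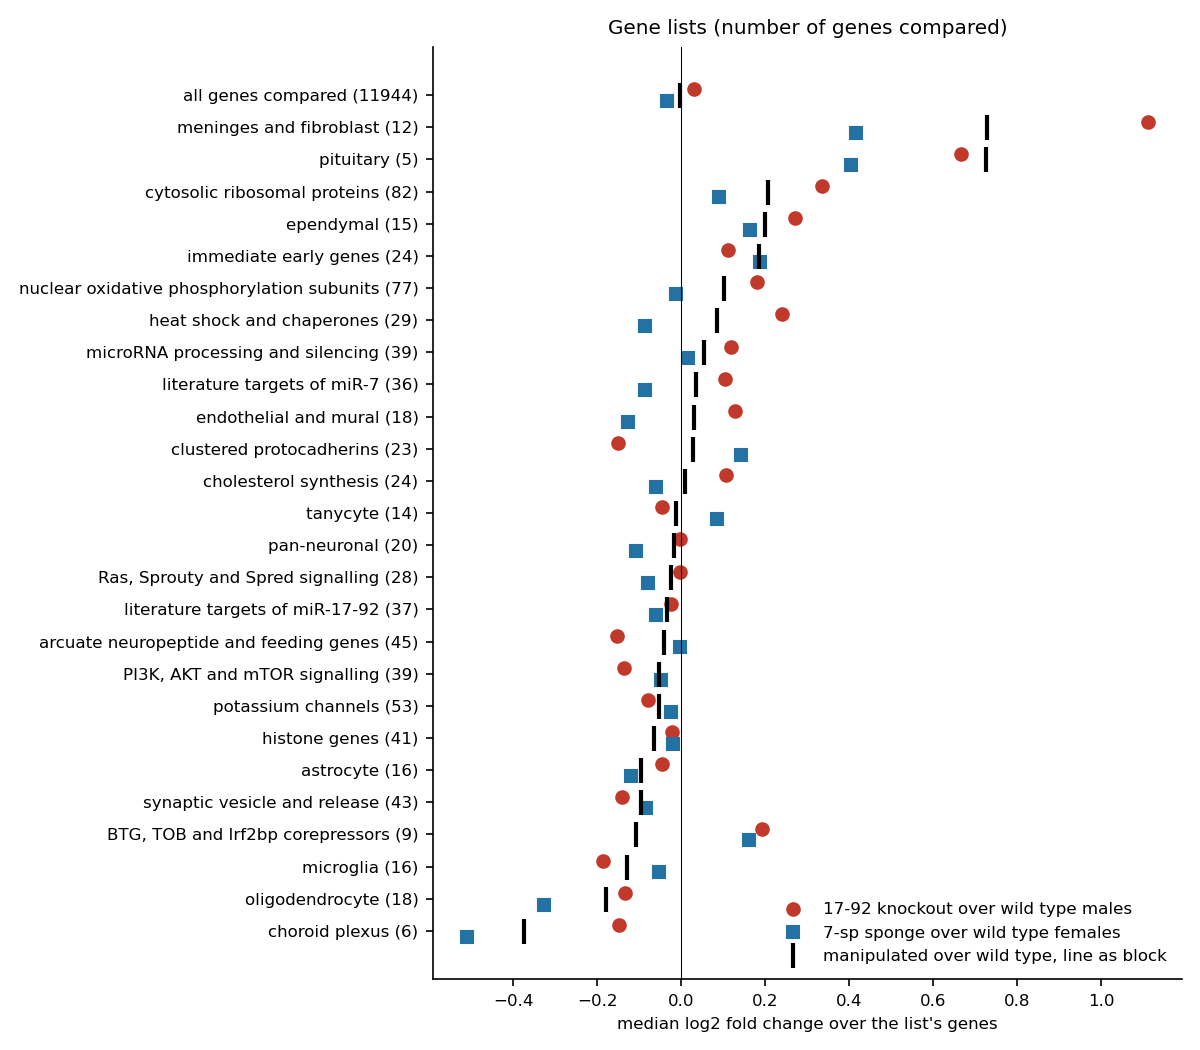
Median log2 fold change of the genes of each list in the knockout over wild type males (circles), in the sponge over wild type females (squares) and in the joint comparison (black bars), with the number of genes compared in brackets and all 11944 genes in the top row. Meningeal and fibroblast genes lie farthest to the right, with a joint median of 0.727, and the choroid plexus genes farthest to the left, with a joint median of −0.374.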

How the data were processed

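The authors deposited FPKM per library at the level of genes and of transcripts, and the series design text names Ballgown as its source. The submitters' processing notes list HISAT2 2.0.4, StringTie 1.2.3, cutadapt and FastQC, with the builds mm10 and GRCm38. The settings are not given in the sources used here. Per the labels' protocols, poly(A) RNA was made into stranded libraries and read from both ends for 150 cycles. No counts are used here, so the depth behind a value is unknown and intervals for counting error are left out.

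The gene tables were joined by gene identifier. Genes averaging at least 1 FPKM in the 8 libraries entered limma 3.58.1 (R 4.3.3) on log2(FPKM + 1), with mouse line as a block, 5 residual degrees of freedom, and empirical Bayes moderation with a mean-variance trend. Effects within lines and their difference came from a fit with 4 groups over the same libraries. All tests were two-sided, with Benjamini-Hochberg adjustment over the 11944 genes and a threshold of 0.05. Values after ± beside log2 fold changes are standard errors. The labels do not say that the pools of a group are independent litters, so a p-value reflects only how far these libraries differ. The fit was run on simulated data with normally distributed spread, no line effect and changes only in genes above a minimum mean level. The genes that passed the joint test lay under that level, so the simulation does not bear on their calls. Exon numbers and 3′ UTRs came from GENCODE M21, where 99.9% of the genes matched, and their models can differ from those the authors counted on.

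The genes compared, the lists, the tests and the alternatives were chosen with earlier results of these data known. The rule for named genes takes Pomc, Agrp, Npy and Cartpt, called genes separated in both lines, those of next smallest p up to 8 in each direction, the 5 of smallest p for the difference between effects in each direction, and the members of each list with the smallest p or the highest level. Of these, the text gives the members that show most of a list. Some genes that the rule takes are not reported here. The text marks genes outside the rule as picked with their values in view.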

Additional observations from a re-analysis of the deposited data

Results flagged for a closer look

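Values of named genes were examined for 1 library far from the other 3 of its arm, where its gap to the nearest library exceeded Dixon's 95% critical value as a share of the arm's range. For normally distributed values chance flags about 1 in 20 such groups, and 6 of 136 were flagged here. The rule was applied to FPKM of picked genes, so that rate may not hold for them. Mgat3 was at 3.68 FPKM in sponge library 1, against 23.5 to 26.7 in the other manipulated libraries. Tob1 was at 0.118 FPKM in the same library and listed at 0 in the other 3. With those tied at 0, any value above 0 would be flagged. Frzb, a secreted inhibitor of Wnt signals, was at 5.34 FPKM in sponge library 1, against 1.49 to 2.13 in the other manipulated libraries. In knockout library 1 the pituitary hormone subunit gene Cga was at 14.8 FPKM, against 0.159 to 2.26, and Kcnj16, a potassium channel gene, was at 13.1 FPKM, against 0 to 0.014 in the other manipulated libraries. Without knockout library 1, Kcnj16 passed the joint test (limma, adjusted p = 0.000445), against an adjusted p of 0.856 with it. Spred1 was at 9.50 FPKM in wild type female library 4, against 6.66 to 6.92 in the other wild type libraries.

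For 2 genes the effects of the manipulations differed by the test of the difference itself. The knockout effect minus the sponge effect was 3.14 for Tmem132b and −4.17 for Arpc5 on the log2 scale (limma, adjusted p = 0.0261 and 0.0163). Both differences are also between males and females, and the part of sex cannot be told apart.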

How the results depend on the processing

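The joint count of 3 genes was the same, with all 3 genes shared, under a pseudocount of 0.1, no filter, median centring, quantile normalization, no variance trend, robust moderation and no line block. It was 0 with a mean FPKM of at least 5, 0 without genes listed at 0, and 5 as the average of the line effects; leaving out 1 library gave 2 to 6. The knockout count of 9 was 5 with a mean FPKM of at least 5, 2 without genes listed at 0 and 0 in a fit of the 4 libraries of the line (624 genes at an unadjusted p under 0.05). Leaving out 1 library gave 4 to 21, the most without wild type male library 1. The sponge count of 2 was 0 with a mean FPKM of at least 5 (242 at an unadjusted p under 0.05), 0 without genes listed at 0 (442) and 5 in the 4 libraries of the line; leaving out 1 library gave 0 to 13, with 0 without sponge library 1 or wild type female library 2 and 13 without sponge library 2. The count of 2 for the difference between effects was 0 to 16 when 1 library was left out, with 0 without knockout library 2 or wild type female library 2. The causes were not tested.

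Replicate numbers did not pair the libraries: deviations of same-numbered libraries correlated at −0.0017 in the 17-92 line and 0.021 in the 7-sp line. With a replicate block within mouse line, 0 genes passed limma in the joint comparison (560 at an unadjusted p under 0.05), with adjusted p = 0.116 for Nhlrc1, 0.221 for Ankrd34a and 0.848 for Zfp664. In that joint fit sponge library 1 and wild type female library 4 each stood alone in a block. They did not inform the effect, and fewer than 5 residual degrees of freedom were left. The part of these losses in the lost calls was not tested. With the replicate block in the 4 libraries of the knockout line, 0 passed (518 at an unadjusted p under 0.05). Agrp had a joint log2 fold change of −0.10 with the block and −0.13 to 0.14 when 1 library was left out. The 5 named genes that passed lost the call in 23 of 82 recomputed values: Zfp664 in 10, Tmem132b in 7, Arpc5 in 4, and Nhlrc1 and Ankrd34a in 1 each. The other 63 named genes, most of them far from the threshold, gained a call in 5 of 1075 values and changed sign in 5, all of Agrp. With 2 libraries per group and unknown depth, small differences between values under 1 FPKM cannot be resolved.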
